A study of Homo sapiens with 12 samples.

Results

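The 9 genes described here make, break down or bind hyaluronan: UGDH, HAS2, HAS3, HYAL1, HYAL2, HYAL3, CEMIP, CEMIP2 and CD44. They were chosen by symbol from 60649 gene identifiers, and HAS2 was selected on its values in these data, namely a double knockdown level far below the sum of the single knockdown differences. HAS2 is therefore given as a description with no test, and the difference from additivity is given without a test for every one of the 9. All 9 were among the 17576 genes that passed the filter on low counts. Total RNA was sequenced from MDA-MB-231, an established human triple-negative breast cancer cell line of mesenchymal character, in 4 groups of 3 libraries. Control cells carried a sham-targeting short hairpin RNA (shRNA), SIRT1 KD cells an shRNA against SIRT1, IGF2BP2 KD cells an shRNA against IGF2BP2, and SIRT1+IGF2BP2 double KD cells both. All groups were infected with lentivirus in the presence of Polybrene at 8 µg/mL and kept in puromycin at 2.0 µg/mL. Cells with stable expression of the constructs were selected, so no group is an acute loss. The sources used here give neither the hairpins nor whether the 3 libraries of a group came from separate infections. The p-values therefore cover only the spread among libraries, which may be technical. SIRT1 removes acetyl groups from proteins with NAD as cofactor, while IGF2BP2 binds and stabilises messages. The study's title sets the question of which genes are regulated by these proteins.

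Hyaluronan is a long unbranched sugar polymer of the extracellular matrix. Synthases in the plasma membrane build it from UDP-glucuronic acid, which UGDH makes, and UDP-N-acetylglucosamine, and push the growing chain out of the cell. CEMIP starts the breakdown of long chains. Hyaluronidases cut them further, among them the membrane-anchored HYAL2 and the lysosomal HYAL1. CD44 is the main cell-surface receptor and is abundant on mesenchymal breast cancer cells.

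The library labels held for the targeted genes. Normalised SIRT1 counts were 834 ± 32.7 in control, 527 ± 27.5 in SIRT1 KD, 728 ± 35.8 in IGF2BP2 KD and 404 ± 28.7 in double KD (mean ± SD, n = 3, as for all such values below). Between double KD and SIRT1 KD the SIRT1 level differed by -0.38 on the log2 scale (SE 0.08, adjusted p = 0.00157). IGF2BP2 was 3076 ± 44.5, 3757 ± 35.4, 762 ± 69.6 and 864 ± 140 in the same order. The 12 libraries held between 19522606 and 22509142 reads, except double KD replicate 2 with 15243152. That library also stood further from its partners than any other, with 1.18% of reads from mitochondrial genes against 1.99% to 2.57% in the other 11. Of the line's own markers VIM, CD44, MSN, AXL, CAV1 and KRT18 were each at 6198 normalised counts or more in every library, ESR1 and PGR were at or below 7.66, and CDH1 reached 24.1 at most. EPCAM at 134 to 243 and CLDN3 at 59.6 to 114 were present at low levels. The summed level of 6 packaging-cell (HEK-293T) markers was at most 11.5. The summed level of 7 fibroblast markers, mostly COL1A1 and PDGFRB, was 713 to 750 in control libraries, 493 to 578 with SIRT1 KD, 674 to 714 with IGF2BP2 KD and 696 to 1153 with double KD. Of the 7, COL1A1, COL1A2, LUM and PDGFRB were above 0 in all 12 libraries, while DCN was at 0 in 11, PDGFRA in 9 and COL3A1 in 5. Their part in the results was not tested. In these bulk libraries fewer cells with a transcript and less transcript per cell cannot be told apart.

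On the scale of normalised counts per kilobase of exon, which allows levels of different genes to be compared, CD44 led in control cells with 1798, at the 97.4th percentile of the 13207 protein-coding genes tested. CEMIP followed with 495 and UGDH with 489. HYAL2 at 95.7, CEMIP2 at 73.3, HYAL3 at 49.0 and HAS2 at 43.4 formed a middle range. HAS3 at 10.3 and HYAL1 at 7.29 were the lowest. By the same ranking HAS2 was at the 29.9th percentile and HAS3 at the 13.4th, so the receptor message was among the abundant ones and both synthase messages were in the lower part of the range.

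HAS2, the synthase known for making very long chains, was lower than control in SIRT1 KD, higher on average in IGF2BP2 KD and lowest in double KD. Its normalised counts were 173, 165 and 206 in the 3 control libraries, 109, 116 and 118 in SIRT1 KD, 225, 194 and 250 in IGF2BP2 KD, and 58.7, 50.8 and 55.6 in double KD. All SIRT1 KD libraries lay below all control libraries, all double KD libraries lay below every other library, and IGF2BP2 KD overlapped control. As group means these were 182 ± 21.8, 114 ± 4.58, 223 ± 28.2 and 55.1 ± 4.02, so that SIRT1 KD stood at 63.0% of control, IGF2BP2 KD at 123% and double KD at 30.3%. The log2 difference of IGF2BP2 KD from control cells was 0.29 (SE 0.13), and that of double KD from SIRT1 KD was -1.04 (SE 0.13). The difference between these values, the interaction, was -1.34 (SE 0.18), and 0.501% of the genes tested had a lower one. An additive expectation from the single knockdowns was -0.36 on the log2 scale against an observed double KD difference of -1.70. HAS2 was selected on this pattern, so these values carry no test.

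**Figure D1:**
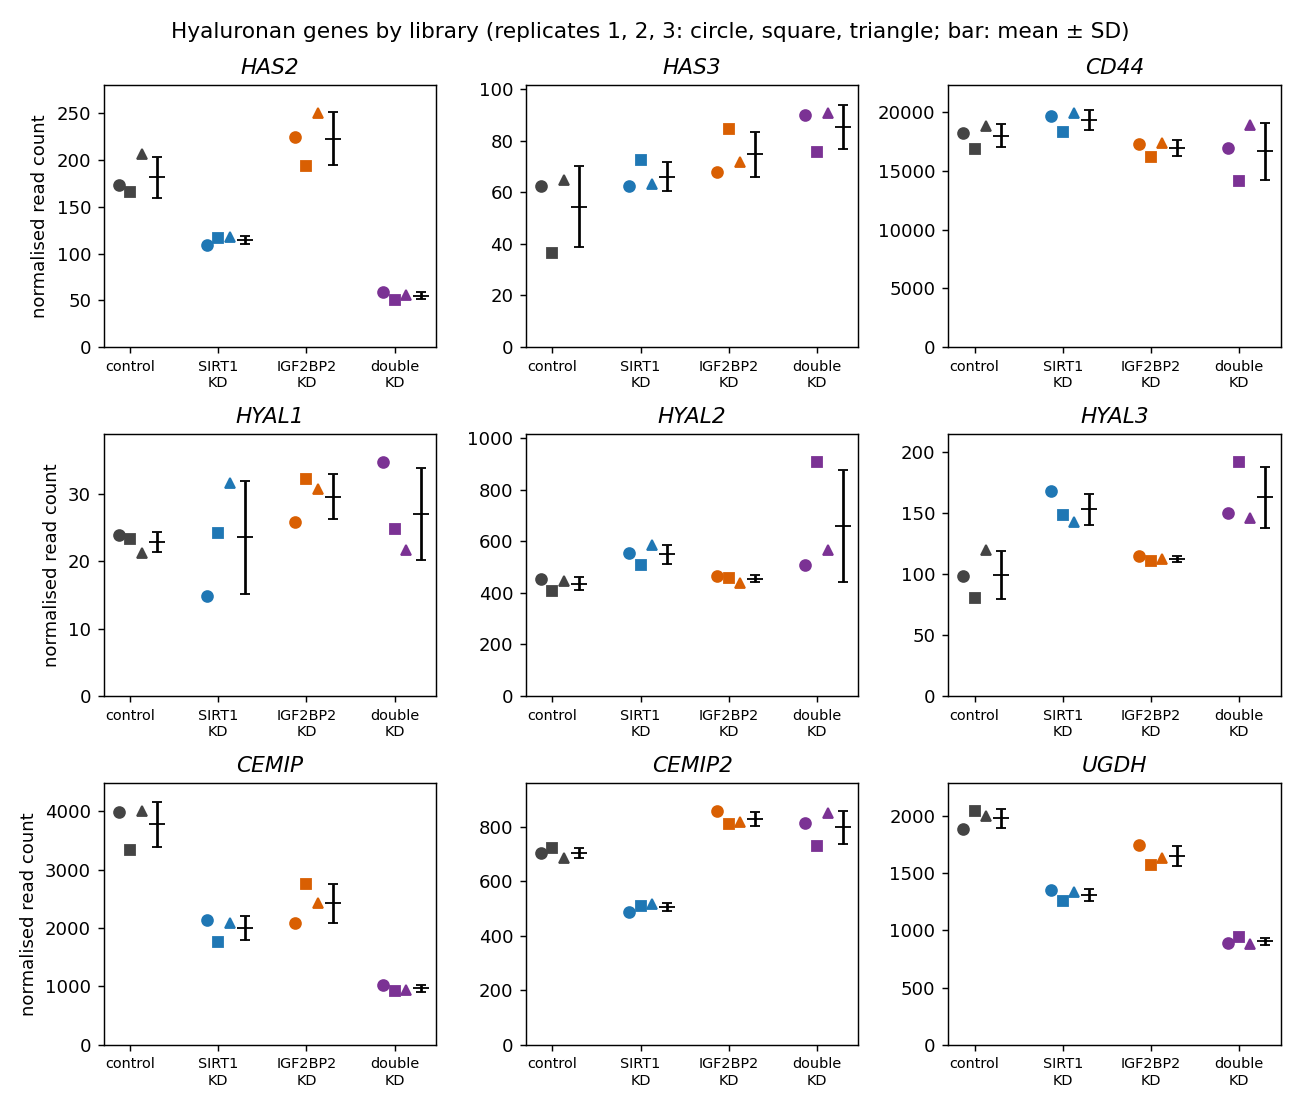
Normalised read counts (vertical axes, linear from 0) of the 9 hyaluronan genes in the 4 groups, each symbol 1 library (replicates 1, 2 and 3 as circle, square and triangle) and each bar the mean ± SD. HAS2, CEMIP and UGDH are lowest in double KD with no overlap with any other group, the CD44 control libraries overlap every knockdown group, and double KD replicate 2 is the high square of HYAL2.

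HAS3, a synthase known for shorter chains, was highest in double KD, where HAS2 was lowest. Its normalised counts were 62.2, 36.4 and 64.6 in control, 62.6, 72.4 and 63.2 in SIRT1 KD, 67.8, 84.4 and 71.9 in IGF2BP2 KD, and 89.9, 75.5 and 90.7 in double KD. Every double KD library lay above every control library, and control replicate 2 was the lowest of all. HAS3 rose in double KD against control by a log2 difference of 0.68 (SE 0.19, adjusted p = 0.00961, limma), and without control replicate 2 the difference was 0.42 with adjusted p = 0.0682. The differences of SIRT1 KD (0.32, adjusted p = 0.242) and of IGF2BP2 KD (0.49, adjusted p = 0.0921) did not pass the threshold of 0.05, and the latter passed it without double KD replicate 2 (0.49, adjusted p = 0.0256). Without control replicate 2 the SIRT1 KD and IGF2BP2 KD differences were 0.05 (adjusted p = 0.856) and 0.23 (adjusted p = 0.446). In the order control, SIRT1 KD, IGF2BP2 KD, double KD no pair of neighbours differed beyond the test, with adjusted p-values of 0.242, 0.518 and 0.487. HAS3 shares 365 exon bases, 6.90% of its exons, with CHTF8 on the opposite strand. CHTF8 stood at 38.41, 31.93, 46.06 and 40.45 normalised counts in the same order, and its part in the HAS3 values was not tested.

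The 2 synthases can be set against each other per kilobase of exon. HAS2 made up 77.9%, 85.1% and 80.1% of the HAS2 and HAS3 signal in the control libraries, and 80.7%, 74.4% and 81.5% in IGF2BP2 KD. In SIRT1 KD the share was 68.8%, 66.9% and 70.2%. In double KD it was 45.2%, 45.9% and 43.7%, with HAS3 at 16.1 and HAS2 at 13.1 normalised counts per kilobase on average. Double KD was the only one of the 4 groups in which HAS3 exceeded HAS2 per kilobase, in all 3 libraries. HAS2 was selected on its low double KD level, so this share is a description too. The remaining synthase, HAS1, was not tested and reached 14.4 normalised counts at most.

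**Figure D2:**
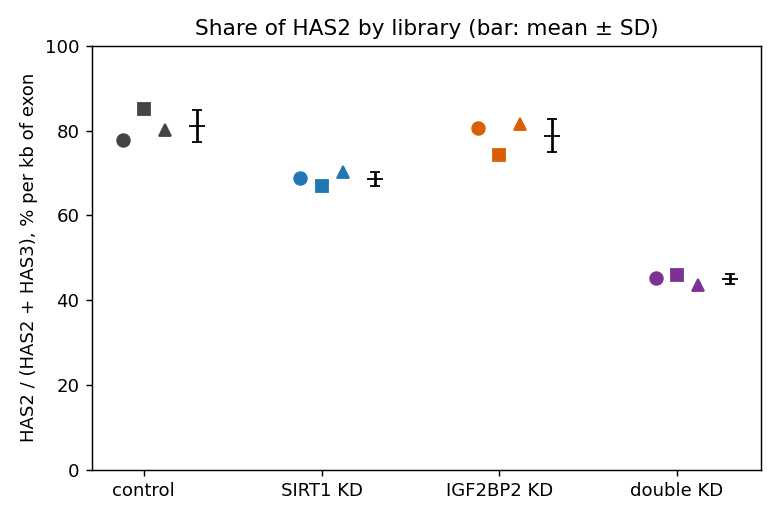
Share of HAS2 in the summed HAS2 and HAS3 level per kilobase of exon (vertical axis, percent) for each library of the 4 groups, with bars for mean ± SD. The share was 81.0 ± 3.73% in control and 44.9 ± 1.16% in double KD, with SIRT1 KD between them at 68.6 ± 1.65%.

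UGDH, which supplies the UDP-glucuronic acid for the chain, fell in each knockdown and furthest in both together. Its normalised counts were 1886, 2043 and 2001 in control, 1350, 1252 and 1331 in SIRT1 KD, 1743, 1571 and 1632 in IGF2BP2 KD, and 891, 937 and 883 in double KD. No 2 groups overlapped, and the order from high to low was control, IGF2BP2 KD, SIRT1 KD, double KD, with every neighbouring pair differing past the test. The log2 difference from control was -0.59 (SE 0.07, adjusted p = 2.1e-06) in SIRT1 KD, -0.26 (SE 0.07, adjusted p = 0.0104) in IGF2BP2 KD and -1.13 (SE 0.07, adjusted p = 4.5e-10) in double KD. Without control replicate 2 or without control replicate 3 the IGF2BP2 KD difference was -0.24 or -0.25 and its adjusted p rose to 0.0599 or 0.0507. The log2 differences of double KD from SIRT1 KD and from IGF2BP2 KD were -0.54 and -0.87 (adjusted p = 1.25e-05 and 3.1e-08). UGDH in double KD stood at 45.7% of control. It shares 293 exon bases, 7.24% of its exons, with UGDH-AS1 on the opposite strand. UGDH-AS1 stood at 19.68, 20.23, 28.86 and 21.74 normalised counts in control, SIRT1 KD, IGF2BP2 KD and double KD. Its part in the UGDH values was not tested.

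CEMIP, the secreted protein that starts hyaluronan depolymerisation, also fell in all 3 knockdowns. Its normalised counts were 3978, 3335 and 4008 in control, 2142, 1762 and 2088 in SIRT1 KD, 2089, 2754 and 2429 in IGF2BP2 KD, and 1032, 928 and 933 in double KD. The single knockdowns overlapped each other, and both lay wholly between control and double KD. The log2 difference from control was -0.92 (SE 0.10, adjusted p = 2.0e-06) in SIRT1 KD, -0.64 (SE 0.10, adjusted p = 2.4e-04) in IGF2BP2 KD and -1.96 (SE 0.10, adjusted p = 1.4e-10) in double KD, where 25.5% of the control level was left. Double KD was also below each single knockdown, with log2 differences of -1.05 from SIRT1 KD and -1.32 from IGF2BP2 KD (adjusted p = 9.3e-07 and 3.8e-08). The single knockdowns differed by 0.28 (adjusted p = 0.0386). That last call was lost without SIRT1 KD replicate 2 (0.19) or 3 (0.31), without IGF2BP2 KD replicate 2 (0.18) or 3 (0.27), and without double KD replicate 2 (0.28), with adjusted p from 0.0528 to 0.205. The gene MESD on the opposite strand shares 224 exon bases with CEMIP, 2.94% of its exons, and no source used here gives the strand setting of the counting. MESD stood at 840 ± 27.1, 391 ± 34.9, 869 ± 89.2 and 376 ± 12.8 normalised counts in control, SIRT1 KD, IGF2BP2 KD and double KD. Its log2 differences from control were -1.11 (adjusted p = 3.8e-08), 0.04 (adjusted p = 0.800) and -1.16 (adjusted p = 1.26e-08) in SIRT1 KD, IGF2BP2 KD and double KD, and its part in the CEMIP values was not tested.

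CEMIP had the largest log2 difference of the tested members in double KD, and its promoter is shown for that reason, as listed by RefSeq for build GRCh38.p14. The run is the 250 bases before the gene's start in RefSeq, 5′ to 3′ on the gene's strand, with capitals marking the GC box GGGCGG on either strand and the letters TATAAA. GENCODE 29 starts the gene earlier, so the last 27 bases lie in its first exon.
CEMIP promoter, chr15:80779120-80779369, plus strand: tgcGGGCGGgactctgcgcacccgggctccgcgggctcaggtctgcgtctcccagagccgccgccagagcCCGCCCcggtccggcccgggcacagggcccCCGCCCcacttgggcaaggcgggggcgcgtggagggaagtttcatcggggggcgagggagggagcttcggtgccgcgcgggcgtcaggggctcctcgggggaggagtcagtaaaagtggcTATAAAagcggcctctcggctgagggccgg
The run held 3 GC boxes and 1 TATAAA. Over the full 300 bases, which run 50 further into the gene, GGGCGG on either strand was found in 45.0% of 35116 promoters of that length and TATAAA in 11.5%. The window held neither the AP-1 letters TGANTCA (7.71% of promoters) nor an NF-kB motif (1.91%) on either strand. These matches describe the letters in the window only.

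CEMIP2, a transmembrane relative of CEMIP for which hyaluronan cleavage has also been described, had its lowest level in SIRT1 KD and not in double KD. Its normalised counts were 705, 724 and 687 in control, 488, 511 and 515 in SIRT1 KD, 859, 812 and 817 in IGF2BP2 KD, and 815, 730 and 849 in double KD. SIRT1 KD lay below all other groups, and IGF2BP2 KD and double KD overlapped above control. CEMIP2 fell in SIRT1 KD by 0.48 on the log2 scale (SE 0.07, adjusted p = 7.0e-05). In double KD it rose against SIRT1 KD by 0.66 (SE 0.07, adjusted p = 4.1e-06), and the log2 difference of double KD from control was 0.18 (adjusted p = 0.0752), or 0.24 (adjusted p = 0.00522) without double KD replicate 2. The rise in IGF2BP2 KD of 0.23 (adjusted p = 0.0379) was lost without any 1 of the control, SIRT1 KD or IGF2BP2 KD libraries, at values of 0.21 to 0.25 and adjusted p of 0.0508 to 0.138. CEMIP2 did not differ past the test between double KD and IGF2BP2 KD (log2 difference -0.06, 95% interval -0.21 to 0.10, adjusted p = 0.605).

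The hyaluronidases cut the chain into smaller pieces. HYAL3, for which activity of its own is uncertain, had normalised counts of 98.6, 80.3 and 120 in control, 168, 149 and 143 in SIRT1 KD, 115, 111 and 112 in IGF2BP2 KD, and 150, 192 and 146 in double KD. All SIRT1 KD and double KD libraries lay above all control and IGF2BP2 KD libraries. HYAL3 rose in SIRT1 KD by 0.63 (SE 0.15, adjusted p = 0.00277) and in double KD by 0.71 (SE 0.15, adjusted p = 8.3e-04) on the log2 scale, while the IGF2BP2 KD difference was 0.19 (95% interval -0.11 to 0.50, adjusted p = 0.416). HYAL3 in double KD was 0.08 above SIRT1 KD (adjusted p = 0.741) and 0.52 above IGF2BP2 KD (adjusted p = 0.0104). IGF2BP2 KD lay below SIRT1 KD, with a log2 difference of -0.44 (adjusted p = 0.0227), a call lost without SIRT1 KD replicate 1 (-0.37, adjusted p = 0.102) or IGF2BP2 KD replicate 2 (-0.42, adjusted p = 0.0618) or 3 (-0.44, adjusted p = 0.0594). HYAL3 shares 248 exon bases, 12.2% of its exons, with NAA80 on the same strand, which stood at 229, 220, 205 and 210 normalised counts in control, SIRT1 KD, IGF2BP2 KD and double KD. It also shares 43 exon bases, 2.12% of its exons, with IFRD2 on the same strand, which stood at 2123, 1889, 1917 and 2776. The part of either gene in the HYAL3 values was not tested.

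HYAL2, a membrane-anchored enzyme that cuts long chains, had normalised counts of 453, 406 and 446 in control, 554, 509 and 584 in SIRT1 KD, 466, 459 and 440 in IGF2BP2 KD, and 507, 909 and 566 in double KD. The value of 909 belongs to double KD replicate 2, the library with fewest reads and the low mitochondrial share, and its part in the result beyond leaving it out was not tested. HYAL2 rose in double KD against control by 0.56 (SE 0.15, adjusted p = 0.00979) on the log2 scale. Without that library the difference was 0.30 with adjusted p = 0.00247, and the SIRT1 KD difference of 0.33, which missed the threshold with all libraries (adjusted p = 0.117), passed it (adjusted p = 2.13e-04), as it did without double KD replicate 1 (adjusted p = 0.0490). The difference of IGF2BP2 KD from SIRT1 KD, -0.27 with adjusted p = 0.183, had adjusted p = 0.00199 without double KD replicate 2. Double KD and SIRT1 KD differed by 0.22 (adjusted p = 0.342), by 0.39 (adjusted p = 0.0498) without double KD replicate 1, and by -0.03 (adjusted p = 0.813) without double KD replicate 2. Against IGF2BP2 KD double KD was higher by 0.49 (adjusted p = 0.0219). Without double KD replicate 2 this was 0.24 (adjusted p = 0.0197), and without IGF2BP2 KD replicate 1, 2 or 3 it was 0.51, 0.50 or 0.47 and missed the threshold with adjusted p of 0.050, 0.0551 and 0.0673. HYAL2 shares 509 exon bases, 11.2% of its exons, with TUSC2 on the same strand, and reads there may be counted to either gene. TUSC2 stood at 457, 633, 564 and 774 in control, SIRT1 KD, IGF2BP2 KD and double KD.

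HYAL1, the lysosomal enzyme that cuts smaller fragments, had the lowest level of the 9. Its group means were 22.8 ± 1.43 in control, 23.5 ± 8.36 in SIRT1 KD, 29.6 ± 3.28 in IGF2BP2 KD and 27.0 ± 6.84 in double KD normalised counts. No comparison passed the test. Every IGF2BP2 KD library lay above every control library, with a log2 difference of 0.35 (95% interval -0.19 to 0.90, adjusted p = 0.403). The double KD difference from control was 0.21 on the log2 scale with a 95% interval of -0.33 to 0.75, so a smaller rise or fall was not detectable at this depth.

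CD44, the receptor, stayed close to its control level. Its normalised counts were 18230, 16905 and 18819 in control, 19687, 18341 and 19934 in SIRT1 KD, 17338, 16213 and 17410 in IGF2BP2 KD, and 16965, 14105 and 18907 in double KD. Control overlapped every knockdown group. The log2 difference from control was 0.10 (95% interval -0.07 to 0.28, adjusted p = 0.400) in SIRT1 KD, -0.08 (-0.26 to 0.10, adjusted p = 0.581) in IGF2BP2 KD and -0.12 (-0.30 to 0.06, adjusted p = 0.303) in double KD. These intervals leave room for changes of modest size only. Without double KD replicate 3 the double KD difference was -0.22 with adjusted p = 0.0465, and that from SIRT1 KD was -0.32 with adjusted p = 0.0081 against -0.22 and adjusted p = 0.0647 with all libraries. Without double KD replicate 2 they were close to 0 from control (adjusted p = 0.963) and -0.11 from SIRT1 KD (adjusted p = 0.194). The IGF2BP2 KD difference from SIRT1 KD, -0.19 with adjusted p = 0.0918, passed the threshold without double KD replicate 2 (adjusted p = 0.00431) or 3 (adjusted p = 0.0463). With only the 2 groups compared in the fit it had adjusted p = 0.00287. In such a fit the SIRT1 KD difference of 0.10 from control had adjusted p = 0.0497. Counts per gene do not separate the standard CD44 isoform from variant isoforms.

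**Figure D3:**
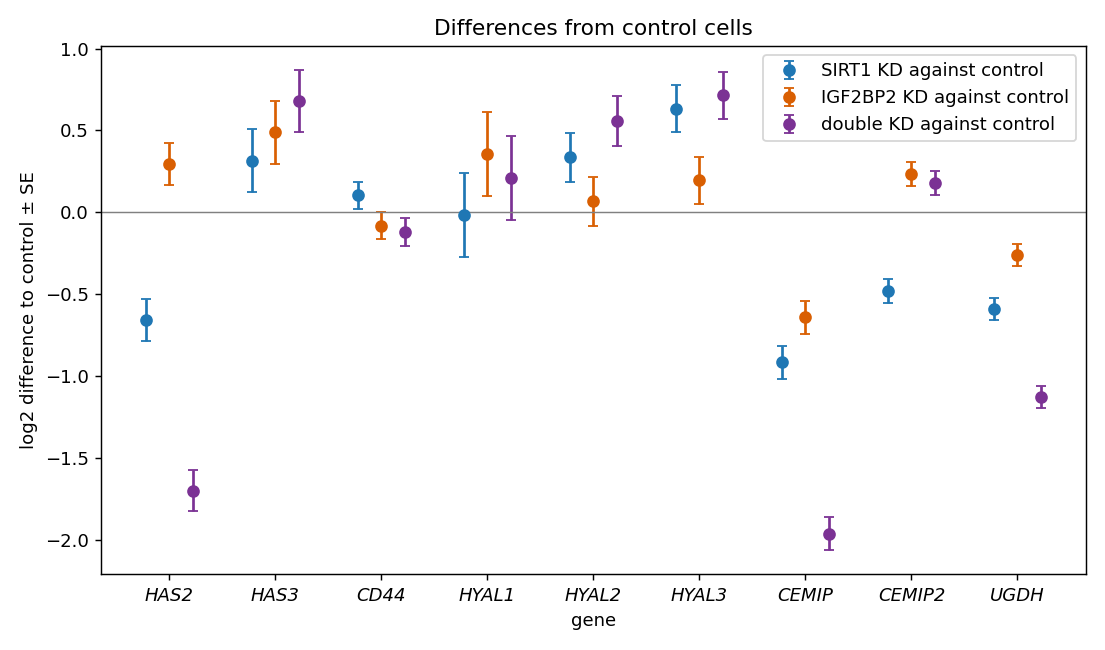
Log2 difference to control ± SE (vertical axis) of the 9 genes in SIRT1 KD, IGF2BP2 KD and double KD, from the fit over all 12 libraries. CEMIP, HAS2 and UGDH reach -1.96, -1.70 and -1.13 in double KD, HAS3, HYAL2 and HYAL3 lie above 0 in all 3 knockdowns, and CD44 lies within 0.12 of 0.

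Counted over the 8 members other than HAS2, 1 rose and 3 fell in SIRT1 KD against control, where 28.6% of all genes tested were called. In IGF2BP2 KD against control 1 rose and 2 fell, with a background of 16.3%, and in double KD against control 3 rose and 2 fell, with a background of 34.2%. Double KD against SIRT1 KD had 1 rise and 2 falls with a background of 22.6%. Double KD against IGF2BP2 KD had 2 rises and 2 falls with a background of 31.6%, and IGF2BP2 KD against SIRT1 KD had 3 rises and 1 fall with a background of 38.6%. With 8 genes and calls in both directions, these counts do not set the members apart from other genes. The median log2 difference of the 8 was 0.04 in SIRT1 KD, 0.13 in IGF2BP2 KD and 0.19 in double KD, where the median of all genes was between -0.01 and 0.01. Without double KD replicate 2 the numbers called against control were 5, 4 and 6 in place of 4, 3 and 5. Over all 17576 genes tested, the numbers called without that library were 7001, 5037 and 7068 in place of 5030, 2857 and 6018. The comparisons share the control libraries, so they are not independent of each other.

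The members also differed in how far the double knockdown departed from the sum of the single knockdown differences on the log2 scale. The sum takes the loss of SIRT1 to be equal in SIRT1 KD and double KD, but SIRT1 stood at 63.2% and 48.4% of control there. The part of this deeper loss in the interactions was not tested. CEMIP had a sum of -1.56 and a double KD difference of -1.96, an interaction of -0.40 (SE 0.14). UGDH had a sum of -0.85 and a double KD difference of -1.13, an interaction of -0.27 (SE 0.09). CEMIP2 lay on the other side, with a sum of -0.25, a double KD difference of 0.18 and an interaction of 0.43 (SE 0.10). Of all genes tested, 11.3% had a lower interaction than CEMIP, 17.6% a lower one than UGDH and 90.6% a lower one than CEMIP2. The interactions of HAS3 (-0.12, SE 0.27), CD44 (-0.14, SE 0.12), HYAL1 (-0.13, SE 0.36), HYAL2 (0.15, SE 0.21) and HYAL3 (-0.11, SE 0.21) lay closer to 0. The interaction of HYAL2 was -0.10 without double KD replicate 2, and that of HAS3 was 0.14 without control replicate 2. HAS2, with -1.34, was further from 0 than any of the other 8, which is the value it was selected on.

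**Figure D4:**
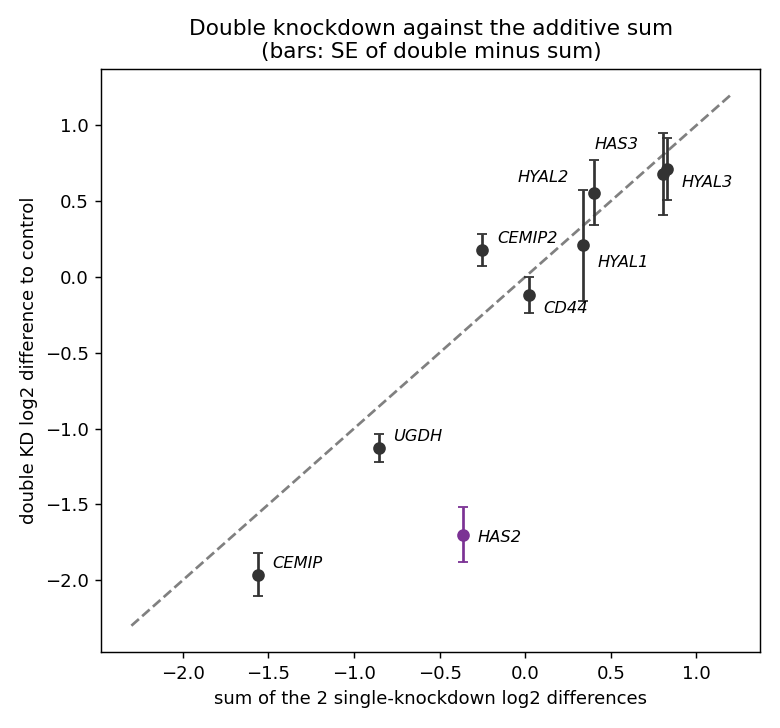
Double KD log2 difference to control (vertical axis) against the sum of the SIRT1 KD and IGF2BP2 KD log2 differences (horizontal axis) for the 9 genes, with bars for the SE of the double KD value minus the sum and a dashed line where both are equal. HAS2 lies furthest below the line (sum -0.36, double KD -1.70), and CEMIP2 lies above it.

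The 3′ untranslated regions were searched for the 7-base runs CTCAGAT and TCAGATA, which were picked in SIRT1 KD against control of these same libraries and are therefore no independent evidence. HAS2 was the only 1 of the 9 members whose longest annotated region (1993 bases) held them, with 1 match of each at separate places. Of 19088 genes searched 18.2% held either run, 11.9% held CTCAGAT and 10.3% held TCAGATA. The share that held both was not counted. CEMIP and UGDH, with 2852 and 1388 bases, held none.

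The other genes of the pathway were taken from lists of 54 genes in 7 roles, of which 37 passed the filter on low counts. Among those 37, 9 rose and 8 fell in SIRT1 KD, 1 rose and 10 fell in IGF2BP2 KD, and 6 rose and 11 fell in double KD, each against control. That is 45.9%, 29.7% and 45.9% of the 37, beside 28.6%, 16.3% and 34.2% of all genes tested. Most of the 17 genes left out belong to the hyaluronan-binding matrix, 11 of 16, including VCAN with 14.4 normalised counts at most and TNFAIP6 with 0.993.

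In precursor supply, 5 of 11 genes rose and 3 fell in SIRT1 KD, none rose and 3 fell in IGF2BP2 KD, and 2 rose and 3 fell in double KD, beside 28.6%, 16.3% and 34.2% of all genes called. GFPT2, which catalyses the first step of the hexosamine pathway toward UDP-N-acetylglucosamine, fell from 1219 ± 96.1 normalised counts in control to 634 ± 27.1, 734 ± 47.3 and 506 ± 18.4 in SIRT1 KD, IGF2BP2 KD and double KD. Its log2 differences were -0.94, -0.73 and -1.27 (adjusted p = 6.4e-08, 3.7e-06 and 8.9e-10). UAP1, which makes UDP-N-acetylglucosamine in the last step, fell in all 3, with log2 differences of -0.70 in SIRT1 KD, -0.18 in IGF2BP2 KD and -0.24 in double KD (adjusted p = 6.2e-08, 0.0380 and 0.00332). GNPNAT1, an acetyltransferase between them, rose in SIRT1 KD (0.48, adjusted p = 1.75e-05) and fell in IGF2BP2 KD (-0.63, adjusted p = 2.5e-06), and its double KD level of 1123 ± 48.4 was close to the control level of 1082 ± 18.6 (log2 difference 0.05, adjusted p = 0.577).

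HAS2-AS1, the antisense transcript of HAS2, stood at 11.4 ± 2.08 in control, 9.26 ± 2.36 in SIRT1 KD, 17.1 ± 2.35 in IGF2BP2 KD and 7.23 ± 1.00 in double KD normalised counts. No difference from control passed the test (adjusted p = 0.523, 0.249 and 0.144), nor did that of double KD from SIRT1 KD (-0.30, adjusted p = 0.524). HAS2-AS1 was lower in double KD than in IGF2BP2 KD (-1.13, adjusted p = 0.00725) and higher in IGF2BP2 KD than in SIRT1 KD (0.83, adjusted p = 0.0352). It shares 201 exon bases with HAS2, so reads there may belong to either gene.

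Of 3 tested glycosidases that finish the breakdown in lysosomes, HEXA was the only 1 called against control. It rose in IGF2BP2 KD (0.38, adjusted p = 0.0013) and in double KD (0.20, adjusted p = 0.0430), where 16.3% and 34.2% of all genes were called. GUSB passed no test against control, with log2 differences from -0.12 to 0.01. Among the other receptors, LAYN (layilin, a membrane protein that binds hyaluronan) fell in all 3 knockdowns, from 1535 ± 90.8 in control to 1261 ± 62.7, 1116 ± 34.5 and 928 ± 38.1, with log2 differences of -0.28, -0.46 and -0.72 (adjusted p = 0.00441, 1.45e-04 and 2.2e-07). TLR2, an innate immune receptor that hyaluronan fragments can engage, rose in SIRT1 KD (0.55, adjusted p = 5.8e-04) and fell in IGF2BP2 KD (-0.51, adjusted p = 0.00203). TLR4, a receptor of the same kind, fell in double KD by 0.29 (adjusted p = 0.0478), while HMMR rose there. Of the 5 other receptors tested, 1 rose and 1 fell in SIRT1 KD against control. In IGF2BP2 KD none rose and 2 fell, and in double KD 1 rose and 2 fell. Of all genes 28.6%, 16.3% and 34.2% were called in these comparisons.

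In the hyaluronan-binding matrix 5 of 16 genes were tested, and 2 of them, PTX3 and HAPLN3, fell in all 3 knockdowns. The other tested genes of this list were not called against control. Of all genes 28.6%, 16.3% and 34.2% were called in SIRT1 KD, IGF2BP2 KD and double KD. PTX3, a pentraxin that takes part in cross-linking hyaluronan-rich matrix, went from 1779 ± 91.6 normalised counts in control to 1094 ± 82.1, 959 ± 24.6 and 914 ± 108, log2 differences of -0.70, -0.89 and -0.96 (adjusted p = 4.2e-06, 7.7e-07 and 6.4e-08). HAPLN3, a link protein that joins hyaluronan to proteoglycans, had differences of -0.80, -0.63 and -0.74 (adjusted p = 0.00342, 0.0273 and 0.00499). Its normalised counts went from 103 ± 8.91 in control to 58.7 ± 3.35, 65.8 ± 1.10 and 63.6 ± 23.4, with the widest spread in double KD. ITIH4 of the inter-alpha-trypsin inhibitor heavy chains passed no test against control at 6.81 to 17.1 normalised counts.

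Of 7 genes that link CD44 to actin or shed it, 5 were called in SIRT1 KD, 2 in IGF2BP2 KD and 6 in double KD against control, where 28.6%, 16.3% and 34.2% of all genes were called. ADAM17, a metalloproteinase that can shed the CD44 ectodomain, fell in all 3 knockdowns, with log2 differences of -0.63 in SIRT1 KD, -0.21 in IGF2BP2 KD and -0.92 in double KD (adjusted p = 3.4e-07, 0.0203 and 2.0e-09). ADAM10, the main constitutive CD44 sheddase, fell in SIRT1 KD (-0.49) and double KD (-0.81; adjusted p = 2.15e-04 and 5.9e-07), with a difference of -0.14 in IGF2BP2 KD (adjusted p = 0.298). MSN (moesin), which links the CD44 tail to actin, rose in SIRT1 KD by 0.39 and in double KD by 0.24 (adjusted p = 1.07e-04 and 0.00608). Of 5 tested regulators of CD44 splicing, none was called in SIRT1 KD, 1 in IGF2BP2 KD and none in double KD against control. Of all genes 28.6%, 16.3% and 34.2% were called there. The 1 called was ESRP2, which fell in IGF2BP2 KD (-0.39, adjusted p = 0.00977). HNRNPM and KHDRBS1 passed no test against control.

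**Figure D5:**
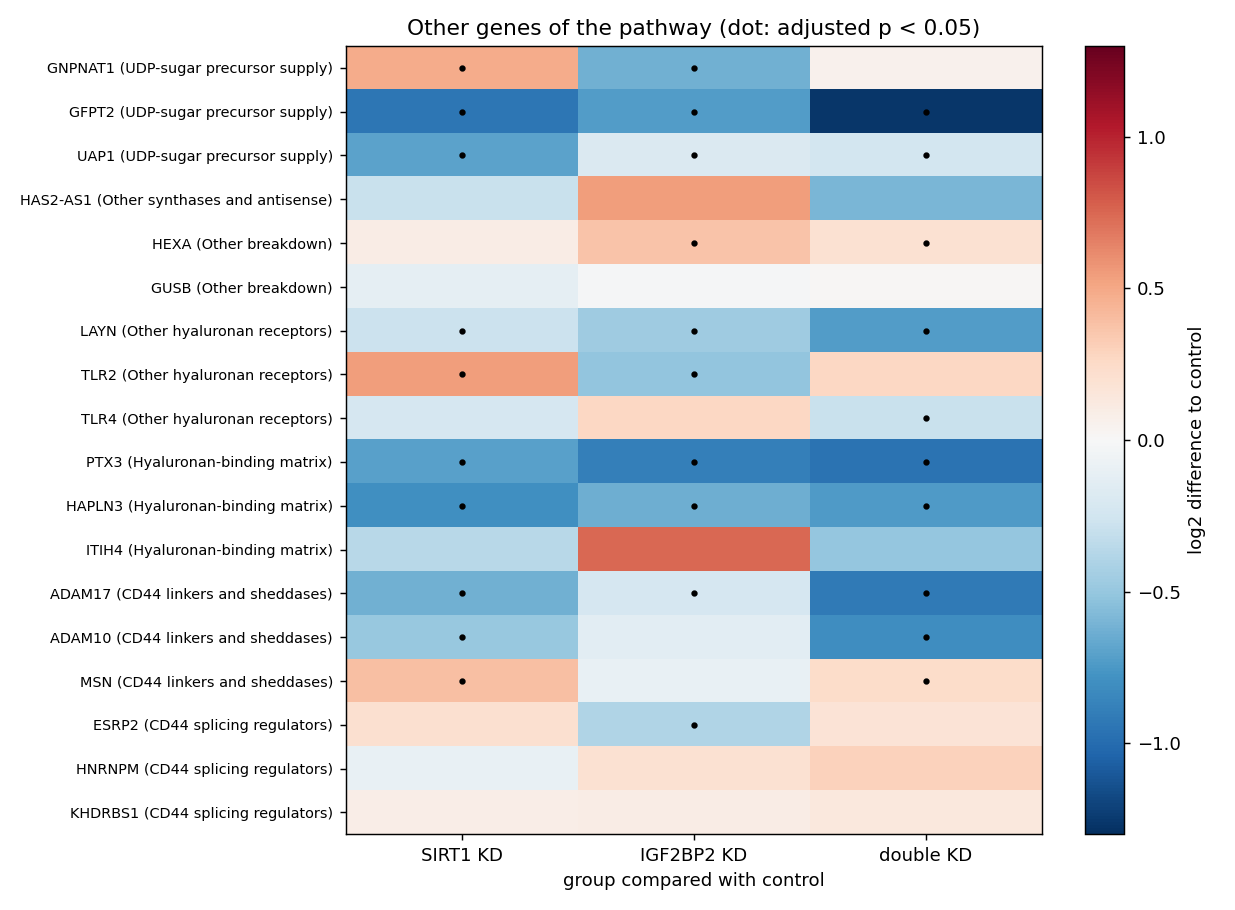
Log2 difference to control (colour, blue lower and red higher) of other genes of hyaluronan biology, rows grouped by role, in SIRT1 KD, IGF2BP2 KD and double KD (columns), with dots where the adjusted p passed 0.05. GFPT2, UAP1, LAYN, PTX3, HAPLN3 and ADAM17 are lower and marked in all 3 columns.

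Across the 12 libraries the log2 level of HAS2 was most like that of UGDH (Pearson r 0.92) and CEMIP (0.87) among the members, and ran opposite to HYAL2 (-0.75) and HYAL3 (-0.74). Among 11266 protein-coding genes with at least 50 normalised counts on average, those most like it included NEDD9 (0.975), RCSD1 (0.972), SCD (0.969) and NAV1 (0.965). NEDD9, a scaffold protein of focal adhesions, stood at 978 ± 47.5 in control, 750 ± 53.4 in SIRT1 KD, 1306 ± 36.4 in IGF2BP2 KD and 489 ± 62.1 in double KD, the order shown by HAS2. These correlations share the 12 libraries and their group structure and are given as likeness only.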

How the data were processed

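RNA sequencing libraries of 12 MDA-MB-231 samples were used. The deposited values are a signal, gene counts that the authors divided by 1 size factor for each library. In each of 12 columns 100% of values lay within 0.001 reads of a whole multiple of a step, which gave back whole reads. Tools named in the submitters' processing notes are STAR, CASAVA and DESeq2, with build GRCh38.p13. A deposited table of log2 ratios, which the authors computed against control, served to check the column codes: each of 12 columns matched its own library best. A table of 12 columns without names was not used. Of 60649 identifiers 60507 had a symbol. The members, lists and tests were chosen with earlier results of these data known, and the match of codes was known too. Annotation was GENCODE 29.

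Genes kept by edgeR 4.0.16 filterByExpr (minimum count 10) were fitted on log2(normalised count + 1) using limma 3.58.1 (R 4.3.3), with 4 group means over 12 libraries, trend and robust variances, and Benjamini-Hochberg adjustment over 17576 genes. Adjusted p-values are from limma unless another tool is named, called at 0.05, and intervals are 95%. Fold changes on this scale understate changes of low genes. The fit was tested on simulated data. All members are named, with up to 3 genes per role list by lowest adjusted p in any comparison, and the 5 genes most like HAS2; some genes that this rule names are not reported here. Alternatives were edgeR's quasi-likelihood test, DESeq2 1.42.0, TMM scaling, pseudocounts of 0.5 and 5, no filter, the 2 groups alone, a replicate block and leaving out each library.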

Additional observations from a re-analysis of the deposited data

Results flagged for a closer look

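Each IGF2BP2 KD library had more HAS2 than the control mean, although the libraries of these groups overlapped, while each double KD library had less than the SIRT1 KD mean. The difference between the 2 log2 differences was -1.336 on the log2 scale (SE 0.18). It was not tested, because HAS2 was selected on this value.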

How the results depend on the processing

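The 48 tested values of the 8 members other than HAS2 were recomputed under 20 alternatives, 960 values in all. Of these 909 kept direction and side of the threshold, 26 lost the call and 16 gained one. The other 9 changed sign and passed the threshold in neither fit. They were HYAL1 in SIRT1 KD against control (0.0444 with edgeR, 0.0433 with DESeq2, and -0.252 to 0.266 with 1 library left out) and 5 values with 1 library left out. In double KD against SIRT1 KD these were HYAL1 (-0.0581 to 0.460), HYAL2 (-0.0331 to 0.387) and HYAL3 (-0.0426 to 0.153), and in double KD against IGF2BP2 KD they were CD44 (-0.134 to 0.0771) and CEMIP2 (-0.103 to 0.00557). The sign turned without SIRT1 KD replicate 1 for HYAL1 (in SIRT1 KD against control also at 0.0166 when control replicate 1 was dropped), and for the remaining 4 genes when double KD replicate 2 was dropped. The HAS2 interaction was -1.28 to -1.35 over the tools, scalings, pseudocounts and filter tried and -1.43 to -1.25 with a library left out. With only the 2 groups in the fit, 7794 genes in place of 5030 were called for SIRT1 KD against control. For IGF2BP2 KD against control the count was 5116 in place of 2857. It was 2214 in place of 3980 for double KD against SIRT1 KD and 3641 in place of 5550 for double KD against IGF2BP2 KD. With all 4 groups but without double KD replicate 2, the counts were 7001, 5037, 5147 and 6479 in the same order. The cause of these shifts was not tested. With 1 library left out, the count of all genes for IGF2BP2 KD against control ranged from 1862 (without control replicate 3; 1892 without control replicate 2) to 5037 (without double KD replicate 2). The number of members called in that comparison ranged from 1 (without control replicate 2 or 3) to 4 (without double KD replicate 2). In IGF2BP2 KD against SIRT1 KD it ranged from 2 (without IGF2BP2 KD replicate 2 or 3) to 5 (without double KD replicate 2 or 3). The count of all genes there was 6014 and 5686 without IGF2BP2 KD replicate 2 and 3. It was 8583 and 6956 without double KD replicate 2 and 3, against 6777 with all libraries. On the recovered reads edgeR's quasi-likelihood test called 5286, 3114 and 6099 genes in SIRT1 KD, IGF2BP2 KD and double KD against control, and DESeq2 called 5050, 3184 and 5818.

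Whether the replicate numbers pair the libraries is not settled. The deviations of libraries with the same number had correlations of -0.19 to 0.10 (median 0.02). For libraries with different numbers they were -0.16 to 0.23 (median -0.01). With 3 libraries in each group these ranges cannot exclude a pairing. With the replicate block 5098, 2930 and 6083 genes were called in the same 3 comparisons, CD44 passed the threshold in double KD against SIRT1 KD (-0.22, adjusted p = 0.0187) and in IGF2BP2 KD against SIRT1 KD (-0.19, adjusted p = 0.0298), and CEMIP in IGF2BP2 KD against SIRT1 KD had adjusted p = 0.0501. Without the low-count filter the CEMIP2 rise in IGF2BP2 KD had adjusted p = 0.187. HYAL1 and HAS3 had the fewest reads per kilobase in control cells; what this adds to their spread was not tested.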
